A study of Esox lucius with 13 samples.

Results

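The spleen library of a northern pike (Esox lucius) was compared with libraries from 12 other tissues of the same fish: head kidney, kidney and gill, the digestive organs stomach, gut and liver, heart and muscle, brain, eye and nose, and testis. The sample labelled gut was hind gut by the paper's methods. All 13 libraries came from 1 wild-type juvenile male that was caught in the wild and frozen whole before the tissues were taken, with 1 library per tissue and no treatment. The members described are the transcripts with 10 or more fragments in spleen, a fragment being a sequenced read pair assigned to a transcript. They numbered 20116 of the 38696 transcripts measured, and each was set against the tissue in which it was highest outside spleen.

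In fish, which have neither lymph nodes nor blood-forming bone marrow, the spleen and the head kidney are the main organs of immune cells. The spleen filters blood through sheathed capillaries called ellipsoids, where macrophages take up particles, worn red cells and immune complexes, and it stores red cells and thrombocytes. It is built on a frame of reticular fibroblasts and vessels, so a whole-organ library holds RNA of blood, immune, vascular and stromal cells together.

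Levels are given as FPKM, fragments per kilobase of transcript scaled to 1000000 fragments of the library. An interval after an FPKM is an exact 95% Poisson interval and an interval after a ratio is an exact conditional binomial one. Both cover counting error only, since with 1 library per tissue the spread between fish could not be measured and no difference could be tested. A transcript was called higher in spleen when its FPKM ratio was 2 or more and the lower counting bound lay above 1. Names are those the authors assigned by protein similarity, mostly to proteins of other species, and could be tied to 517 of the 20116 transcripts. The names say what a transcript resembles, and roles given below are those known for the named protein, largely from mammals.

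The spleen library held 18161079 fragments, within the 17240414 to 22300517 of the other tissues. It was among the most evenly filled libraries. Its 100 most abundant transcripts took 26.6% of its fragments, against 14.96% in testis, a median of 45.9% over the other 12 tissues and 74.7% in stomach. Fragments were found for 30237 transcripts in spleen, second to brain with 33637, and liver had the fewest with 20484. Because FPKM is a share of a library, the libraries in which a few transcripts take most fragments show lower FPKM for the rest. The typical transcript was 8.60 times higher in spleen than in liver, 6.01 times higher than in muscle and 4.72 times higher than in stomach on this scale. When the libraries were instead scaled by their median transcript (median-of-ratios size factors), these medians were 1.13, 1.03 and 1.19. The level of spleen against the mean of the tissues was lower by 0.99 on the log2 scale under that scaling, and ratios of named transcripts that it takes below 1 or below 2 are marked below.

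Spleen was the highest of the 13 tissues for 4160 of its 20116 transcripts, 20.7%. The call of 2-fold or more was met by 1121, which is 5.57% of the transcripts compared, that of 5-fold by 320 (1.59%) and that of 10-fold by 91 (0.452%). By number of calls at 2-fold, spleen stood below brain with 5258 and testis with 3363 and above eye with 998, nose with 829 and gut with 643. Head kidney had 335. At 10-fold, spleen had fewer calls than brain, testis, eye, gut, muscle, liver and heart, the last with 159. Scaled by size factors, 478 transcripts passed 2-fold in spleen, and all 478 were among the 1121. That overlap follows from the scaling itself. It multiplied FPKM by 0.503 in spleen and by 0.632 to 3.84 in the other tissues, so no ratio could rise. The place of spleen among the tissues also depends on the scaling. Of 31051 transcripts with at least 1 FPKM in some tissue, spleen was highest for 3833 on FPKM, behind brain and testis only. Under size factors it was highest for 1685. Brain, testis, liver with 2541, eye with 2240, muscle with 2233, heart with 1704 and nose with 1686 then stood above it.

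**Figure D1:**
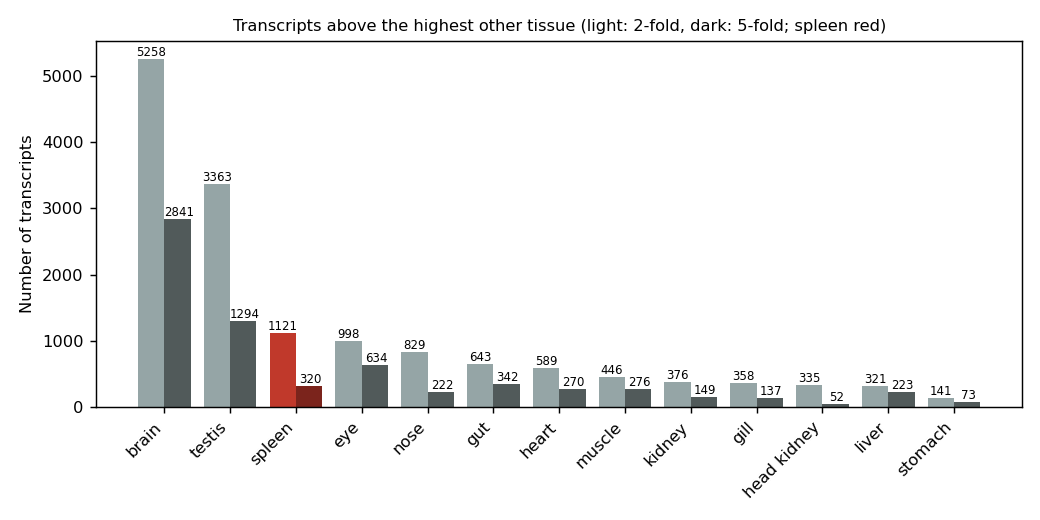
Number of transcripts 2-fold or more (light bars) and 5-fold or more (dark bars) above the highest other tissue, for each of the 13 libraries among transcripts with 10 or more fragments in it, spleen in red. On the FPKM scale spleen had 1121 and 320, fewer than brain and testis at 2-fold. At 5-fold eye with 634 and gut with 342 also stood above it.

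Most of the spleen-high transcripts were present elsewhere at a low level rather than missing. The 1121 had a median of 7.62 FPKM in spleen and a median ratio of 3.42, and 19 of them had no fragment in any other tissue. Their median length was 1551 bases, against 2189 over all 20116. Together they took 10.6% of the spleen fragments. A total of 322 were covered by 1000 or more fragments, whereas 455 had fewer than 100 and wide intervals. A further 172 transcripts had ratios from 1.8 to just under 2 with a lower bound above 1.

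The next tissue after spleen was brain for 271 of the 1121 (24.2%), head kidney for 236 (21.1%, 95% exact binomial interval 18.7 to 23.6%), nose for 155 (13.8%) and heart for 129 (11.5%). Among all 20116 transcripts the highest other tissue was brain in 24.7%, head kidney in 11.4%, nose in 12.7% and heart in 5.77%. Head kidney and heart thus stood next to spleen in a larger share of the spleen-high transcripts than of all transcripts, and testis in a smaller one, 2.94% against 24.5%. Since the rule that picks the 1121 also limits the level in every other tissue, these shares are a description. The binomial interval treats transcripts as independent draws, which they are not. It covers neither counting error nor the spread between fish. The median level of the 1121 in head kidney was 10.7% of that in spleen, in brain 11.2%, in kidney 8.36%, in heart 7.97% and in testis 0.362%. For all 20116 the median in testis was 41.2% of spleen.

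**Figure D2:**
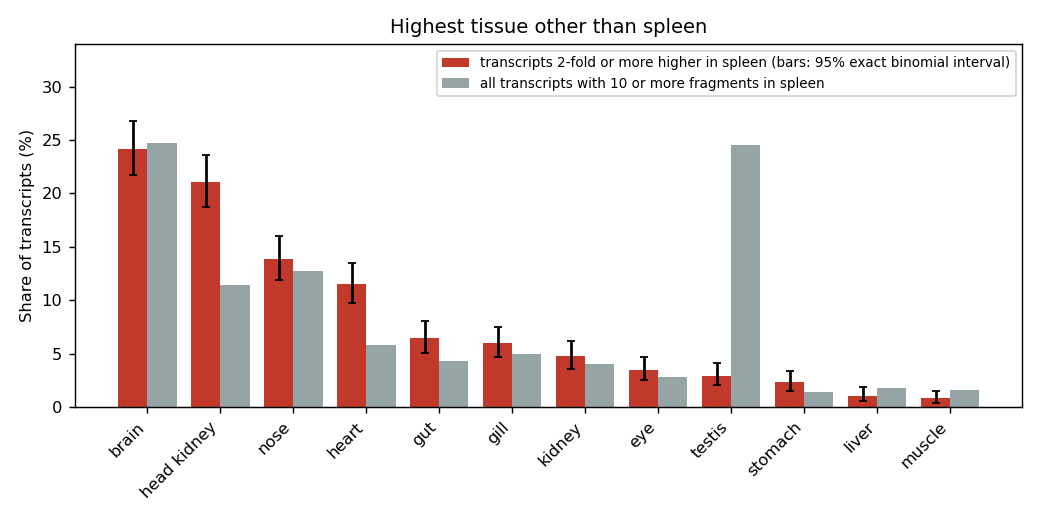
Share (%) of transcripts for which each tissue was the highest outside spleen, for the 1121 transcripts 2-fold or more higher in spleen (red) and for all 20116 (grey). Bars on the red columns are 95% exact binomial intervals, which treat transcripts as independent. Head kidney was the next tissue in 21.1% of the first and 11.4% of the second, testis in 2.94% and 24.5%.

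The 2 most abundant transcripts of the library carried no name that could be tied to them and were not particular to spleen. GATF01022069 had 11159.9 FPKM in spleen and 41031 in kidney, a ratio of 0.272 (0.271 to 0.273), and GATF01022074 had 8273 FPKM in spleen, below the 18127 of head kidney. The 2 transcripts with the largest ratios among those with 100 or more fragments were unnamed too. GATF01021431 had 383 fragments in spleen (16.6 FPKM), against 1 fragment in nose, its highest other tissue, a ratio of 373 with an interval of 66.5 to 14770.0. GATF01015391 had 332 fragments in spleen (10.1 FPKM) and 1 in testis, a ratio of 351 (62.5 to 13891). Both were listed at 0 in at least 10 of the other tissues. Chosen after their values were seen, the 2 most abundant of the 1121 were also unnamed. They had 2085 FPKM in spleen against 162 in gill, a ratio of 12.8 (12.4 to 13.3), and 1726 FPKM against 104 in head kidney, a ratio of 16.6 (15.9 to 17.3). Thus the transcripts picked here by abundance and by ratio were all without a name.

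Of the 517 named transcripts, 74 were highest in spleen and 24 met the 2-fold call, 4.64% beside the 5.57% of all transcripts. Under size factors 21 of the 24 stayed above the highest other tissue and 13 stayed at 2-fold or more. The 3 that did not stay above were Collagen alpha-4VI chain, C3a anaphylatoxin chemotactic receptor and Inverted formin-2. For 8 of the 24 the name rests on a rule added after the data were examined, the nearest expression profile among the authors' gene models, and these are marked as nearest-profile names. The groups that follow are taken in the order of vessels, stroma, patterning factors, blood and immune cells, and other genes. Their lists were chosen with earlier results of these data known. A list's share set beside that of all transcripts may reflect that choice, and is a description only.

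**Figure D3:**
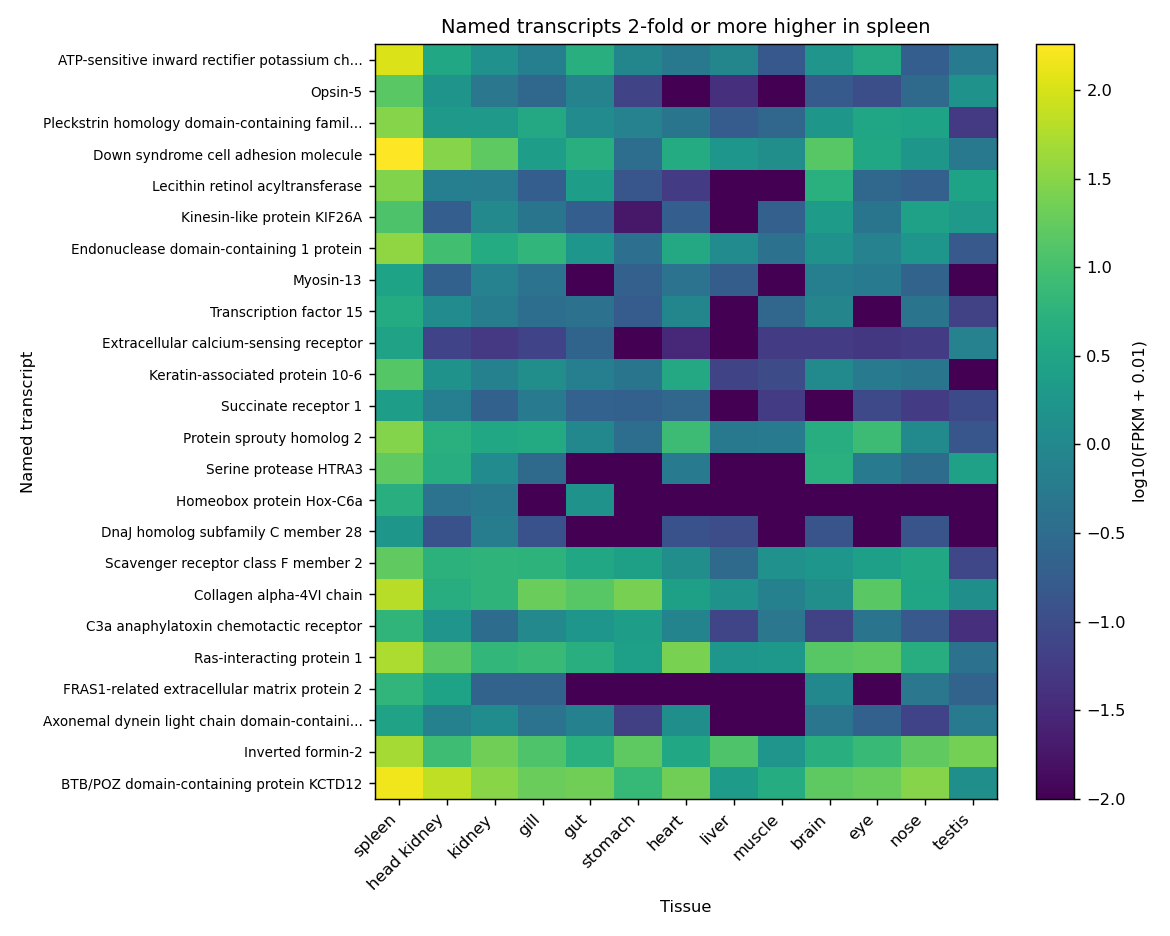
Level of the 24 named transcripts called 2-fold or more higher in spleen in each of the 13 libraries, as log10(FPKM + 0.01), ordered by ratio to the highest other tissue from top to bottom. The spleen column holds the highest value of every row, from 1.82 FPKM for DnaJ homolog subfamily C member 28 to 182 for Down syndrome cell adhesion molecule.

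Among vessel and thrombocyte genes, the largest ratio to the highest other tissue of any of the 517 named transcripts was that of ATP-sensitive inward rectifier potassium channel 8 (KCNJ8). It forms the pore of a potassium channel of vascular smooth muscle and pericytes that opens when cellular ATP is low. KCNJ8 had 109.9 FPKM in spleen (107 to 113), while the other 12 tissues ran from 0.138 in muscle through a median of 0.898 to 4.83 in gut. Spleen was thus 22.8 times higher than gut (19.9 to 26.1) and 30.7 times higher than head kidney (26.3 to 36.0), and 10.9 times higher than gut under size factors. No other tissue came near the level in spleen, and the next 2 after gut were eye with 3.65 and head kidney with 3.58 FPKM.

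Ras-interacting protein 1, needed in endothelial cells for vessel lumen formation, had 55.0 FPKM in spleen and 25.05 in heart, a ratio of 2.20 (2.08 to 2.32). The 12 other tissues had a low of 0.391 in testis and a median of 5.72, and under size factors the ratio to heart was 1.09. Vascular endothelial growth factor receptor 1 had 19.01 FPKM in spleen and 16.6 in brain, a ratio of 1.15 (1.01 to 1.30) that fell below 1 under size factors, but only 0.676 in head kidney. HEY1 (Hairy/enhancer-of-split related with YRPW motif protein 1), a target of Notch signalling in arterial endothelium, had 42.1 FPKM in spleen, 44.7 in eye and 1.51 in head kidney. On FPKM, spleen and eye could not be separated by counting error (ratio 0.942, 0.864 to 1.03). Under size factors the ratio of HEY1 to the highest other tissue was 0.485. Platelet endothelial cell adhesion molecule, a nearest-profile name and a marker of endothelium and platelets, reached 75.0 FPKM in spleen, 0.689 of the 109 in head kidney (0.660 to 0.719). Tissue factor, which starts coagulation, had 3.94 FPKM in spleen, against 15.04 in head kidney.

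In all, 2 of the 10 vessel and thrombocyte members met the 2-fold call, beside 5.57% of all 20116 transcripts. Their median ratio was 0.564, beside 0.499 for all. Over the 21393 transcripts with 10 or more fragments in spleen or head kidney, 32.3% were 2-fold or more higher in spleen and 10.6% lower. Their median ratio was 1.38. The members needed 10 fragments in spleen itself, so the shares are not like for like. Over the 20116 transcripts chosen as the members were, the median level in head kidney was 68.2% of that in spleen. Of the 10 members, 5 were 2-fold or more higher in spleen than in head kidney, 3 were 2-fold or more lower, and the median ratio was 2.23. The lower ones outside the naming rule included P-selectin, an adhesion molecule of platelets and endothelium, with 2.03 FPKM in spleen, 54.3 in head kidney and 77.9 in kidney.

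Of 11 stroma and matrix transcripts, 6 were highest in spleen and 2 met the 2-fold call, beside 20.7% and 5.57% of all transcripts. Their median ratio was 1.09, beside 0.499. The list was chosen with earlier results known, so these shares are a description. Under size factors 4 of the 6 fell below another tissue, and those that did not were Serine protease HTRA3 and, outside the naming rule, Nidogen-2. Such a loss was general. Of 31051 transcripts with at least 1 FPKM in some tissue, those highest in spleen fell from 3833 to 1685. Against head kidney, 7 of the 11 were 2-fold or more higher in spleen and 1 was 2-fold or more lower, with a median ratio of 3.63. In the comparison of all transcripts with head kidney, 32.3% were 2-fold or more higher in spleen and 10.6% lower, with a median ratio of 1.38.

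Collagen alpha-4VI chain, a nearest-profile name for a subunit of the beaded microfibrils around cells, had 64.0 FPKM in spleen and 24.7 in stomach, a ratio of 2.60 (2.51 to 2.69). Gill with 19.5, eye with 14.7 and gut with 14.3 came next, head kidney had 4.48 and muscle was lowest with 0.721. Under size factors the ratio to stomach was 0.654, so the call depends on the scaling. Serine protease HTRA3, a secreted protease of the matrix, had 109 fragments in spleen on a transcript of 365 bases, and its 16.4 FPKM there was 3.23 times the level in brain (2.16 to 4.96), its highest other tissue, and 3.63 times the 4.52 of head kidney (2.42 to 5.61). It was listed at 0 in 4 tissues: gut, liver, muscle and stomach.

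Connective tissue growth factor had 80.1 FPKM in spleen, 59.9 in gill, 49.9 in heart and 29.6 in head kidney, and its ratio to gill was 1.34 (1.27 to 1.41). The gelatinase 72 kDa type IV collagenase (MMP2) had 50.5 FPKM in spleen, 42.4 in gill and 41.5 in stomach, a narrow lead of 1.19 (1.13 to 1.25), but 10.2 in head kidney. Both leads over the highest other tissue turned below 1 under size factors. Olfactomedin-like protein 2B had 17.0 FPKM in spleen and 15.6 in brain, which counting error did not separate (0.966 to 1.24), and its ratio was 0.842 under size factors. Transforming growth factor-beta-induced protein ig-h3, an adhesive matrix protein, was abundant in spleen with 103 FPKM but higher in gut with 283, muscle with 126 and kidney with 145.

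Of the 8 transcription factors of organ patterning, 4 were highest in spleen and 2 met the 2-fold call, beside 20.7% and 5.57% of all transcripts. Their median ratio was 1.24, beside 0.499. This list too was chosen with earlier results known, so these shares are a description. Of the 4, Insulin gene enhancer protein ISL-2A and Protein atonal homolog 8 fell below another tissue under size factors. Over all transcripts with at least 1 FPKM in some tissue, those highest in spleen fell from 3833 to 1685. These genes are expressed at low levels, and their counts are small. Transcription factor 15 (paraxis), a regulator of somite and mesoderm patterning in vertebrate embryos, had 4.19 FPKM in spleen from 71 fragments, against 1.14 in head kidney, a ratio of 3.67 (2.21 to 6.37). It was listed at 0 in eye and liver. Homeobox protein Hox-C6a, a position gene of the trunk, had 4.79 FPKM in spleen from 34 fragments and 1.49 in gut, a ratio of 3.21 (1.59 to 7.02) that was 1.53 under size factors. Head kidney with 0.409 and kidney with 0.518 were the other tissues with fragments, and 9 tissues were listed at 0.

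Paired mesoderm homeobox protein 1 (PRRX1), a factor of connective tissue mesenchyme, was more abundant. It had 26.9 FPKM in spleen and 27.04 in nose, which counting error did not separate (ratio 0.996, 0.912 to 1.09, and 0.794 under size factors), and gill followed with 8.14. Against head kidney with 2.497 FPKM, PRRX1 was 10.8 times higher in spleen (8.77 to 13.4). Insulin gene enhancer protein ISL-2A had 3.37 FPKM in spleen and 1.95 in testis, with 1 fragment in head kidney, and its ratio of 1.73 was 0.852 under size factors. Protein atonal homolog 8 had 4.74 FPKM in spleen, 3.19 in brain and 1.88 in head kidney, and its ratio of 1.49 was 0.398 under size factors. HAND2 (Heart- and neural crest derivatives-expressed protein 2) had 3.22 FPKM in spleen, well under the 17.6 of heart and close to the 2.99 of head kidney.

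Immune genes gave a mixed picture. The pan-leukocyte marker CD45 (Receptor-type tyrosine-protein phosphatase C, a nearest-profile name) had 142 FPKM in spleen against 233 in head kidney. Kidney had 74.8, gill 32.8 and no other tissue more than 28.9. Spleen was therefore second to head kidney, at 0.609 of its level (0.598 to 0.620). In whole-organ libraries the number and kinds of leukocytes and the level of this transcript per leukocyte cannot be told apart.

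Of the 7 transcripts on the list of T cells, NK cells and leukocytes, 1 was highest in spleen and 0 met the 2-fold call, with a median ratio of 0.538, near the 20.7%, 5.57% and 0.499 of all transcripts. Tumor necrosis factor receptor superfamily member 14, a receptor that sets the balance of T cell activation, had 23.2 FPKM in spleen, 17.0 in brain and 10.9 in head kidney. Its ratio of 1.36 to brain (1.24 to 1.49) turned below 1 under size factors. Differentially expressed in FDCP 6 homolog, a nearest-profile name for a guanine nucleotide exchange factor of lymphocytes, had 24.6 FPKM in spleen against 55.7 in head kidney. GTPase IMAP family member 4 had 3.76 FPKM in spleen against 6.98 in nose.

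Only 2 B cell transcripts could be followed, and 0 met the 2-fold call, beside 5.57% of all transcripts. A pair of transcripts is too few to be compared with that share. The beta chain of the B-cell antigen receptor complex (CD79b, a nearest-profile name) had 3.15 FPKM in spleen from 52 fragments, under the 27.8 of head kidney, the 6.75 of heart and the 4.89 of kidney. Its level in spleen was 0.113 of that in head kidney (0.0833 to 0.151). Immunoglobulin lambda-like polypeptide 1 was the second, with 65 fragments in spleen, its counting interval spanned equality with head kidney, and its ratio of 1.22 was 0.924 under size factors.

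Of 3 complement transcripts, 2 were highest in spleen and 1 met the 2-fold call, beside 20.7% and 5.57% of all transcripts, a comparison that 3 transcripts hardly carry. C3a anaphylatoxin chemotactic receptor, a nearest-profile name for the receptor through which a complement cleavage product attracts myeloid cells, had 6.06 FPKM in spleen, 2.47 in stomach, 1.73 in gut and 1.68 in head kidney. The ratio to stomach was 2.45 (1.92 to 3.15) on the FPKM scale and 0.617 under size factors. Complement C1s subcomponent, a nearest-profile name for a protease of the classical pathway, had 99.7 FPKM in spleen, 75.0 in head kidney and 42.0 in gill but 1.67 in liver. Its ratio to head kidney was 1.33 (1.28 to 1.39), and its ratio to the highest other tissue was 1.01 under size factors. Carboxypeptidase N subunit 2, part of the enzyme that inactivates anaphylatoxins, had 16.1 FPKM in spleen and 39.9 in kidney. The paper lists complement among the genes most specialized to spleen, by a rule of its own on the same libraries. Whether those transcripts are among the 3 followed here was not traced.

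Among 14 transcripts of innate sensing and inflammation, 4 were highest in spleen and 0 met the 2-fold call, near the 20.7% and 5.57% of all transcripts, and the median ratio was 0.336 beside 0.499. Under size factors all 4 were below another tissue. Over all transcripts with at least 1 FPKM in some tissue, those highest in spleen fell from 3833 to 1685 under that scaling. Interleukin-8, a chemokine that attracts neutrophils, had 26.9 FPKM in spleen, 18.3 in stomach and 10.7 in head kidney, a ratio to stomach of 1.47 (1.29 to 1.67) that was 0.370 under size factors. The other 3, outside the naming rule, were Toll-like receptor 6 with 9.62 FPKM against 8.05 in head kidney, Toll-like receptor 2 type-2 with 14.4 against 13.3 there, and Indoleamine 2,3-dioxygenase 2 with 1.03 against 0.763 in gill. The counting intervals of the last 2 ratios included 1. Both Toll-like receptors, sensors of bacterial lipopeptides, stood in spleen and head kidney well above the other tissues, none of which passed 2.53 FPKM. C-C motif chemokine 14, a nearest-profile name, had 22.4 FPKM in spleen, far below the 180 of gill (0.124, 0.108 to 0.142) and the 129 of head kidney. Suppressor of cytokine signaling 3 (nearest-profile name) had 18.7 FPKM in spleen against 59.9 in nose, and Cytokine-inducible SH2-containing protein, another inhibitor of cytokine signalling, had 18.3 against 23.3 in gill. Against head kidney, 8 of the 14 were higher in spleen, 5 of them by 2-fold or more, and 4 were 2-fold or more lower. The median ratio to head kidney was 1.14, beside 1.38 over all transcripts with 10 or more fragments in either tissue.

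Legumain, a nearest-profile name for a lysosomal protease that processes antigens, had 93.5 FPKM in spleen, 74.9 in gill, 56.8 in kidney and 37.7 in head kidney. Its ratio to gill was 1.25 (1.21 to 1.29), and 0.848 under size factors. Proteasome activator complex subunit 2 (nearest-profile name) had 131 FPKM in spleen, under gill with 180, head kidney with 161 and kidney with 141. Thus 1 of the 2 antigen processing transcripts was highest in spleen and 0 met the 2-fold call, beside 20.7% and 5.57% of all transcripts. Scavenger receptor class F member 2, which stood on the macrophage list, was high in spleen, with 16.7 FPKM against 5.87 in kidney, 5.70 in gill and 5.45 in head kidney, 2.85 times the level in kidney (2.61 to 3.11) and 1.60 times that in stomach, the next tissue, under size factors. It was 1 of 2 members of that list compared, and the other, Platelet-activating factor acetylhydrolase, had 14.5 FPKM in spleen and was highest in nose with 21.4. Lists of 2 hardly carry a comparison with the shares of all transcripts.

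Of the 2 haem synthesis transcripts, 0 were highest in spleen, beside 20.7% of all transcripts, a comparison that 2 transcripts hardly carry. Uroporphyrinogen decarboxylase, a nearest-profile name for an enzyme of the haem pathway, had 15.7 FPKM in spleen, 114 in kidney and 56.8 in head kidney, so that spleen had 0.138 of the level of kidney (0.128 to 0.149), though gut with 6.70 and liver with 5.33 lay below spleen. Solute carrier family 25 member 38-A, a mitochondrial carrier needed for haem synthesis, had 0.738 FPKM in spleen and 6.96 in liver. No haemoglobin transcript could be tied to a name.

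**Figure D4:**
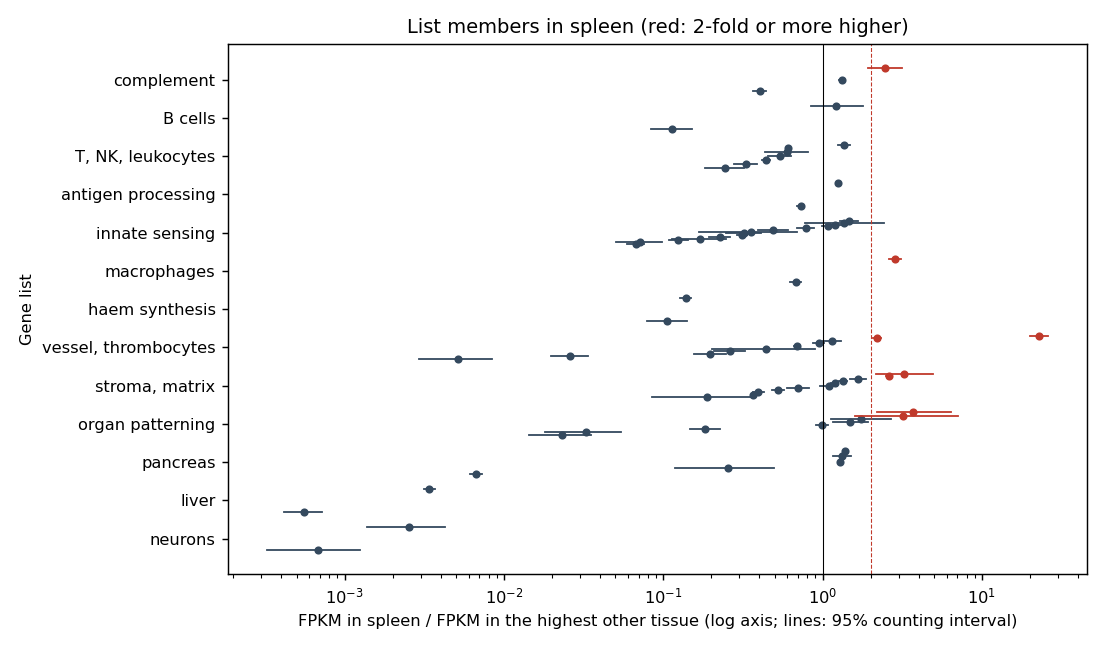
FPKM in spleen divided by FPKM in the highest other tissue (log axis) for the 70 list members with 10 or more fragments in spleen, grouped by list, with 95% counting intervals. The 8 members called 2-fold or more higher (red) belonged to the vessel, stroma, patterning, complement and macrophage lists, and KCNJ8 stood farthest to the right at 22.8.

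Outside the lists, 16 named transcripts met the 2-fold call. Opsin-5 (nearest-profile name), a light-sensing receptor of the eye and brain of other vertebrates, had 14.8 FPKM in spleen from 418 fragments. The other tissues had a median of 0.209 FPKM, with head kidney at 1.60, testis at 1.54 and eye at 0.0960, and heart and muscle were listed at 0. The ratio to head kidney was 9.19 (6.79 to 12.7), and 6.95 under size factors. Thus the transcript with an opsin name was scarce in the eye library and highest in spleen.

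Pleckstrin homology domain-containing family G member 4B (nearest-profile name) had 30.3 FPKM in spleen, a low of 0.0420 in testis, a median of 1.45 and 3.69 in gill, its highest other tissue (ratio 8.20, 7.492 to 9.001). Down syndrome cell adhesion molecule, an adhesion receptor of the immunoglobulin superfamily known from neurons, was named for a transcript of 1200 bases. Its 182 FPKM in spleen were followed by 30.4 in head kidney, 15.9 in kidney and 14.4 in brain, and by a median of 2.94 over the 12 tissues. Lecithin retinol acyltransferase (nearest-profile name), the enzyme that esterifies vitamin A for storage, had 28.5 FPKM in spleen, 5.03 in brain, 2.91 in testis and 2.41 in gut, and 0 in liver and muscle. It was 5.68 times higher in spleen than in brain (4.59 to 7.08) and 41.6 times higher than in head kidney (25.04 to 74.8).

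Kinesin-like protein KIF26A, an atypical kinesin, had 11.6 FPKM in spleen, 2.75 in nose and 2.22 in brain, a ratio to nose of 4.21 (3.70 to 4.81), and 0.180 in head kidney. Endonuclease domain-containing 1 protein (nearest-profile name) had 35.4 FPKM in spleen, 9.24 in head kidney, 6.31 in gill, 4.09 in kidney and 3.70 in heart, with a ratio to head kidney of 3.83 (3.44 to 4.27). Protein sprouty homolog 2, an inhibitor of receptor tyrosine kinase signalling, had 29.2 FPKM in spleen, 8.42 in eye and 8.24 in heart. Its ratio was 3.47 (3.15 to 3.82), and 1.75 under size factors.

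Extracellular calcium-sensing receptor, a G protein-coupled receptor that controls calcium balance, had 2.85 FPKM in spleen from 132 fragments and 0.778 in testis, while no other tissue passed 0.229 FPKM. The ratio to testis was 3.67 (2.54 to 5.41), and head kidney had 3 fragments. Succinate receptor 1, which senses the metabolite succinate, had 2.38 FPKM in spleen from 55 fragments, 0.669 in head kidney and 0.576 in gill, a ratio of 3.55 (2.01 to 6.64).

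The remaining transcripts were mostly thinly covered. Keratin-associated protein 10-6 had 13.5 FPKM in spleen and 3.69 in heart, a ratio of 3.66 (2.91 to 4.63), and of 1.81 under size factors. Myosin-13 and DnaJ homolog subfamily C member 28 rested on 14 and 16 fragments in spleen, with lower bounds of 1.20 and 1.08 on their ratios of 3.81 and 2.90 to kidney. FRAS1-related extracellular matrix protein 2 had 27 fragments in spleen and a ratio of 2.15 to head kidney (1.07 to 4.53), which was 1.62 under size factors. Axonemal dynein light chain domain-containing protein 1 (nearest-profile name) had 2.79 FPKM in spleen and 1.32 in heart, a ratio of 2.11 that was 1.04 under size factors. Inverted formin-2, an actin regulator, had 48.9 FPKM in spleen, 23.5 in testis and 22.03 in kidney, and its ratio of 2.08 was 0.519 under size factors. The sixteenth, left out by the naming rule, was BTB/POZ domain-containing protein KCTD12 (nearest-profile name), at 147 FPKM in spleen, 2.07 times (1.97 to 2.18) the 71.1 of head kidney, and 1.57 times under size factors.

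Below the 2-fold line, and named after its value was seen, a transcript with the nearest-profile name Thyroglobulin was among the abundant ones of spleen. It had 1012 FPKM in spleen, 524 in gill, 468 in head kidney and 346 in gut, but 6.24 in testis, and its ratio to gill was 1.93 (1.90 to 1.96). Thyroglobulin is the precursor of thyroid hormones, and its repeated domain also occurs in other proteins.

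Markers of other organs were checked in the spleen library. Trypsin-1, a digestive enzyme of the pancreas, had 1154 FPKM in spleen (1137 to 1170.5), 831 in liver, 229 in head kidney, 32.7 in stomach and 26.1 in gut. Anionic trypsin-1 had 801 FPKM in spleen, 621 in liver and 142 in head kidney, and Glucagon-2, a hormone of pancreatic islets, had 40.1 in spleen, 30.2 in liver and 21.5 in head kidney. All 3 were thus highest in spleen with liver next, at ratios of 1.39 (1.36 to 1.42), 1.29 (1.26 to 1.32) and 1.33 (1.16 to 1.52), none of them 2-fold, and under size factors all 3 were higher in liver. The 2 trypsin transcripts may share reads and took 0.181% of the spleen fragments. Elastase-1 did not share this pattern, with 24.8 FPKM in spleen, 3741 in kidney and 2631 in head kidney on its nearest-profile transcript and 11 fragments in spleen on a shorter one.

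Of the 5 pancreas transcripts, 3 were highest in spleen and 0 met the 2-fold call, beside 20.7% and 5.57% of all transcripts. Transcripts whose next tissue was liver made up 12 of the 1121 spleen-high ones (1.07%), against 1.81% of all 20116. The 2-fold rule leaves the 3 pancreas transcripts out of the 1121, so this share says nothing about them. Both members of the liver list and both of the neuron list were far below their own organ, with 0 of 2 highest in spleen in each. Hemopexin had 20.2 FPKM in spleen against 5920.4 in liver, and Protein AMBP had 2.06 against 3710.4. The neuronal Stathmin-2 and Glutamate decarboxylase 1 had 0.369 and 0.296 FPKM in spleen against 542 and 116 in brain. The part of pancreatic RNA in the other spleen values was not tested.

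**Figure D5:**
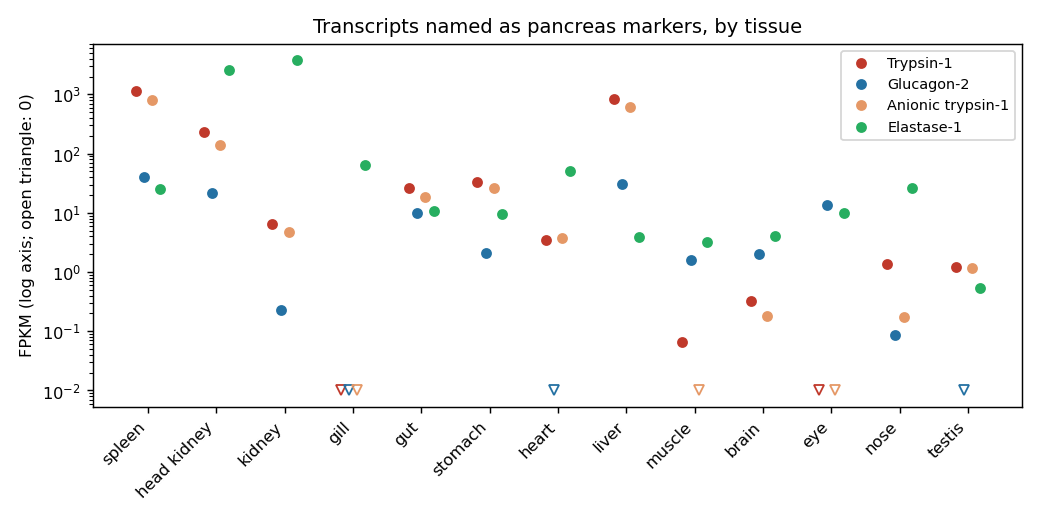
FPKM (log axis, open triangles for tissues listed at 0) of Trypsin-1, Anionic trypsin-1, Glucagon-2 and the longer Elastase-1 transcript in the 13 libraries. The trypsins and Glucagon-2 were highest in spleen and then in liver, and Elastase-1 was highest in kidney and head kidney.

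Set against each tissue in turn, the profile of spleen over 31051 transcripts with at least 1 FPKM in some tissue was closest to head kidney, with a Spearman correlation of 0.872, and then to heart with 0.818, stomach with 0.772, kidney with 0.771 and gill with 0.768. Brain was farthest with 0.493. These are correlations across transcripts of single libraries, and transcripts are not independent replicates. Head kidney also differed from spleen by 2-fold in the fewest transcripts. Of 21393 with 10 or more fragments in either, 6909 (32.3%) were higher in spleen and 2269 (10.6%) lower, so that 75.3% of the calls were higher in spleen, and 60.04% under size factors. For kidney, 34.9% of 22576 were higher in spleen and 18.2% lower, and the share of calls that were higher in spleen moved from 65.8% to 54.7% under size factors.

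Few transcripts were lowest in spleen. Of the 20116, 27 had their lowest level there and 2 (0.00994%) met the 2-fold call for it, neither of them named. The requirement of 10 fragments in spleen leaves out transcripts that were absent from it, so this count covers transcripts present in every tissue.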

How the data were processed

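Total RNA of 13 tissues of 1 fish was sequenced by the authors as paired reads, trimmed with Trimmomatic and assembled with Trinity. Fragments were mapped back to 38696 non-redundant transcripts, by a program not named in the sources used here. The deposited files hold raw counts of fragments per transcript and FPKM computed by the authors. Both columns were used as deposited. Ratios, exact intervals and counts were computed with Python 3.11.15, numpy 2.4.6, pandas 2.3.3 and scipy 1.17.1, figures with matplotlib 3.10.9, and the ratio and interval code was tested on simulated data.

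Where the highest other tissue had 0 fragments, a floor of 3 fragments was used. With 1 library per tissue there are no replicates, no SD and no p-value. Depth is 17240414 to 22300517 fragments per library, and 3 fragments are the limit that a count of 0 allows.

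Names were taken from the paper's supplementary tables, of which the leading 1999 rows each of the transcript table and of the gene model table were at hand. A transcript table row was matched by equal values in all 13 tissues. A gene model was matched by equal fragments, or by fragments within 10% plus 2 counting SD in all tissues. This named 1134 transcripts. A rule added after the data were examined (nearest profile, with a clear gap to the second nearest) named 110 more. It also met 195 transcripts that already had a name, and gave the same name each time. The added rule drew on the same gene models and fragments as the earlier gene model match. For names from that match, the agreement was therefore no independent check, and the 110 names remain unchecked. The values of those tables served only to match names, and no level given here was taken from them. Transcript sequences and positions were not used here.

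The members and the gene lists were chosen with earlier results of these data known. The text names list members called 2-fold or more higher and up to 4 others per list by FPKM in spleen, the 15 named transcripts outside the lists with the largest ratios among those called, and by identifier 2 transcripts by FPKM and 2 by ratio. Alternatives were other fragment minimums, floors, scalings (size factors, totals without the 100 most abundant transcripts, TPM), thinning to equal depth, leaving out each other tissue, and a lower bound past the fold.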

Additional observations from a re-analysis of the deposited data

How the results depend on the processing

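With 1 fish and 1 library per tissue, no alternative measures the spread between animals, and counting error is the only error given. No paired analysis was possible because each tissue has 1 library and no result comes from a test. The 2-fold count of 1121 became 666 with a minimum of 100 fragments, 478 with median-of-ratios size factors, 709 with totals computed without each library's 100 most abundant transcripts, and 669 with the lower counting bound at 2 or more. The 5-fold count of 320 became 178, 120, 175 and 133 in the same order, and 542 without brain. The 2 transcripts lowest in spleen became 5 with a minimum of 3 fragments, 0 with a minimum of 30 or of 100 fragments, 19 with size factors, 8 without the most abundant transcripts, 1 with TPM, 5 without brain, 7 without head kidney, 4 without liver and 0 with the stricter bound. The share of spleen-high transcripts with head kidney next, 21.1%, became 17.99% with size factors and 26.0% without nose. The other alternatives left the 2-fold and 5-fold counts within 1.5 times, the 2-fold count ranging from 899 to 1669. They left this share between 19.9% and 23.4%.

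Of 86 named transcripts compared under the scalings, 19 turned from highest in spleen to below another tissue with size factors. For 15 of them the counting interval of the main ratio lay above 1, and their ratios became 0.654 for Collagen alpha-4VI chain, 0.617 for C3a anaphylatoxin chemotactic receptor, 0.519 for Inverted formin-2, 0.852 for ISL-2A, 0.398 for Protein atonal homolog 8, 0.370 for Interleukin-8, 0.182 for Trypsin-1, 0.700 for Tumor necrosis factor receptor superfamily member 14, 0.794 for Connective tissue growth factor, 0.174 for Glucagon-2, 0.169 for Anionic trypsin-1, 0.848 for Legumain, 0.903 for Toll-like receptor 6, 0.306 for 72 kDa type IV collagenase and 0.883 for Vascular endothelial growth factor receptor 1. The other 4 became 0.961 for Indoleamine 2,3-dioxygenase 2, 0.924 for Immunoglobulin lambda-like polypeptide 1, 0.842 for Olfactomedin-like protein 2B and 0.821 for Toll-like receptor 2 type-2. Without the 100 most abundant transcripts, 10 turned: Toll-like receptor 2 type-2 to 0.915, Collagen alpha-4VI chain to 0.895, C3a anaphylatoxin chemotactic receptor to 0.845, Protein atonal homolog 8 to 0.897, Interleukin-8 to 0.506, Trypsin-1 to 0.486, Tumor necrosis factor receptor superfamily member 14 to 0.885, Glucagon-2 to 0.465, Anionic trypsin-1 to 0.452 and 72 kDa type IV collagenase to 0.419. With TPM and with thinning, 0 of the 86 turned below 1, and Paired mesoderm homeobox protein 1, at 0.996, turned to 1.03 and 1.00.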
